A study of Mus musculus with 32 samples.

Results

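The microglia and macrophage marker genes described here are 30 mouse genes named by symbol, and all 30 were found among the 37310 genes of the deposited count table. They were measured by RNA sequencing in bulk biopsies of mouse hindbrain tumors that resemble Group 3 medulloblastoma. The table holds 6 GMYC tumors, from Glt1-tTA/TRE-MYC mice, and 8 GTML tumors, from Glt1-tTA/TRE-MYCN mice. In both models the tetracycline-regulated transactivator is made in cells that use the Glt1 promoter, and it turns on the human oncogene when doxycycline is absent. Both sets of mice had the immune system of the FVB/N strain and had received no treatment that the labels mention, and the labels give no age. Each library is 1 tumor biopsy, so the counts mix tumor cells with vessels, glia and immune cells. The paper took GTML data partly from an earlier publication, while it sequenced the GMYC tumors itself. Model and origin of the data can therefore not be fully told apart. The comparison of the models in the paper left out a GTML tumor that was not classed as Group 3. The labels do not name it, so all 8 GTML tumors were used here, and values without single tumors are given where they matter.

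Microglia are the resident macrophages of the brain parenchyma. They depend on signaling through the receptor encoded by Csf1r, and their identity rests on the transcription factor PU.1, encoded by Spi1. Macrophages of the meninges and vessels, and cells derived from blood monocytes, share most of the phagocytic genes with microglia, whereas P2ry12, Tmem119, Siglech and Gpr34 are typical of microglia in the undisturbed brain. In tumors such cells take up debris and dying cells, present complement and Fc receptors at their surface, and can lower the genes of the resting state as they become activated. Of the 30 genes, Apoe is also made by astrocytes and Tnfaip8 by many cell types, so these 2 are described apart from the rest.

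GMYC libraries held 6218378 to 7279811 counted reads and GTML libraries 4602294 to 6317404. Myc, to which reads of the human transgene can align, had 134 to 166 CPM (counts scaled to a common library size) in GMYC tumors 1 to 5, 33.4 CPM in GMYC tumor 6 and 2.60 to 8.68 CPM in GTML tumors. Mycn had 7.65 to 34.4 CPM in GMYC tumors, the highest in GMYC tumor 6, and 119 to 191 CPM in GTML tumors. GMYC tumor 6 thus stood well below its group in Myc and held about as much Mycn as Myc, but lay outside the GTML range for both genes. Any pair of tumors of the same model differed beyond sampling noise (chi-square divided by its degrees of freedom 5.67 or more). GTML tumor 2 stood apart from its group over all genes, with 30.4 to 54.8 on this measure against each other GTML tumor, where pairs of the other 7 gave at most 25.8. Counts on small nucleolar RNAs, as a share of the total, split the libraries at 0.3% into 6 above (GMYC tumors 1 to 4 and GTML tumors 1 and 2, which are also the first 6 columns of the deposited table) and 8 below, so results are also given within each side.

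Summed over the 30 genes, GMYC tumors had 932 to 1252 CPM with a median of 1078 CPM, and GTML tumors had 429 to 1327 CPM with a median of 694 CPM. GTML tumor 8 had the highest sum of all 14 tumors and GTML tumor 2 the next highest of its model, at 1074 CPM, while the other 6 GTML tumors had at most 754 CPM and lay below every GMYC tumor. Of the 30 genes, 26 had the higher median in GMYC tumors and 4 in GTML tumors. In a bulk biopsy, fewer cells of a type and less RNA per cell cannot be told apart, and that holds for each difference below. The plot of summed levels shows that the order of the tumors was nearly the same with and without Apoe and Tnfaip8.

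**Figure D1:**
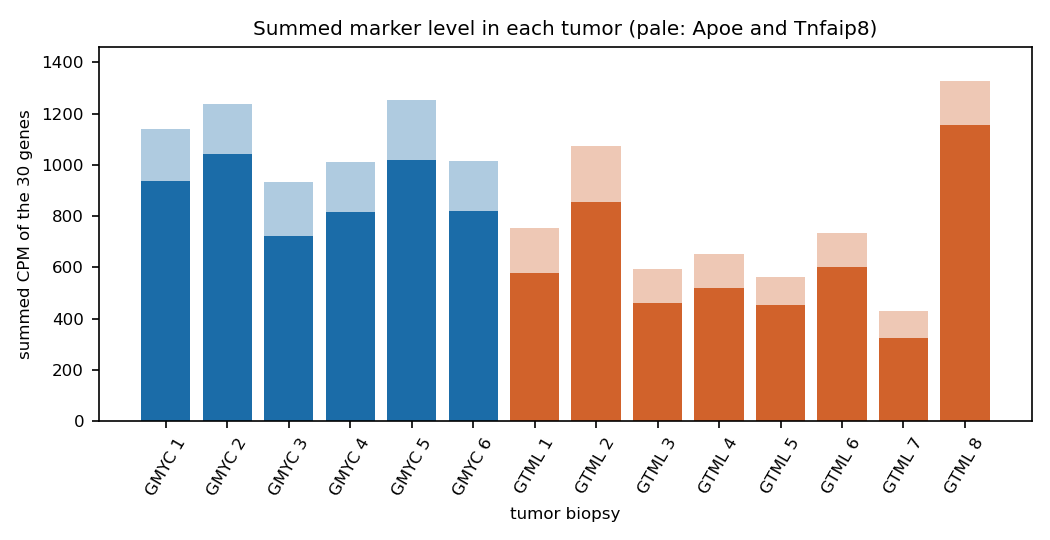
Summed CPM of the 30 genes in each tumor, GMYC in blue and GTML in orange, with the part from Apoe and Tnfaip8 in a pale shade. GTML tumor 8 reaches 1327 CPM, and 6 of the 8 GTML tumors lie below the lowest GMYC tumor at 932 CPM.

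All 30 genes passed the filter of a CPM above 1 in at least 3 tumors, which left 21024 genes to test. With the quasi-likelihood test of edgeR, adjusted by Benjamini-Hochberg over these genes, 3 of the 30 (10%) were higher in GMYC tumors at an adjusted p under 0.05, where 9.71% of all genes tested were. None was higher in GTML tumors by edgeR's test, where 11.5% of all genes were. DESeq2 and limma-voom also called 0 higher in GTML tumors, where they called 15.7% and 9.99% of all genes. The share called at an adjusted p under 0.05 was thus near the background in the GMYC direction and below it in the GTML direction. At an unadjusted p under 0.05 the 30 genes gave 9 higher in GMYC tumors and 0 higher in GTML tumors. Of all 21024 genes tested, 3658 were higher in GMYC tumors and 4280 in GTML tumors at that limit. The fitted log2 fold changes, GTML over GMYC, were below 0 for 22 of the 30 genes (73.3%) and for 47.5% of all genes tested. Their median was -0.34, with a range from -1.33 for Tnfaip8 to 1.19 for Cd14, and the median over all genes was 0.04. Past an adjusted p of 0.01 and an absolute log2 fold change of 1, the limits the study used, lay 1 of the 30 genes (Lyz2), where 3.22% of all genes did.

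The count of 3 depended on the method and on single tumors. DESeq2 called 8 and limma-voom 7 of the 30 genes higher in GMYC tumors, where they called 12.1% and 11.4% of all genes tested. Leaving out each tumor in turn gave 1 to 9. The 9 came without GTML tumor 2 (15.1% of all genes called higher in GMYC) and again without GTML tumor 8 (7.99% of all genes), the 2 GTML tumors with the highest summed level of these genes. Without GMYC tumor 1, 2, 5 or 6, or without GTML tumor 3, 4, 5 or 7, Lyz2 alone was called. Among the libraries above the small nucleolar RNA split, 4 GMYC against 2 GTML, none of the 30 was called by edgeR, where 2 genes in all were called higher in GMYC tumors, and the 30 had no call in either direction. Below the split, 2 GMYC against 6 GTML, Lyz2, Tnfaip8 and Trem2 were called, where 6.69% of all genes were called higher in GMYC.

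**Figure D2:**
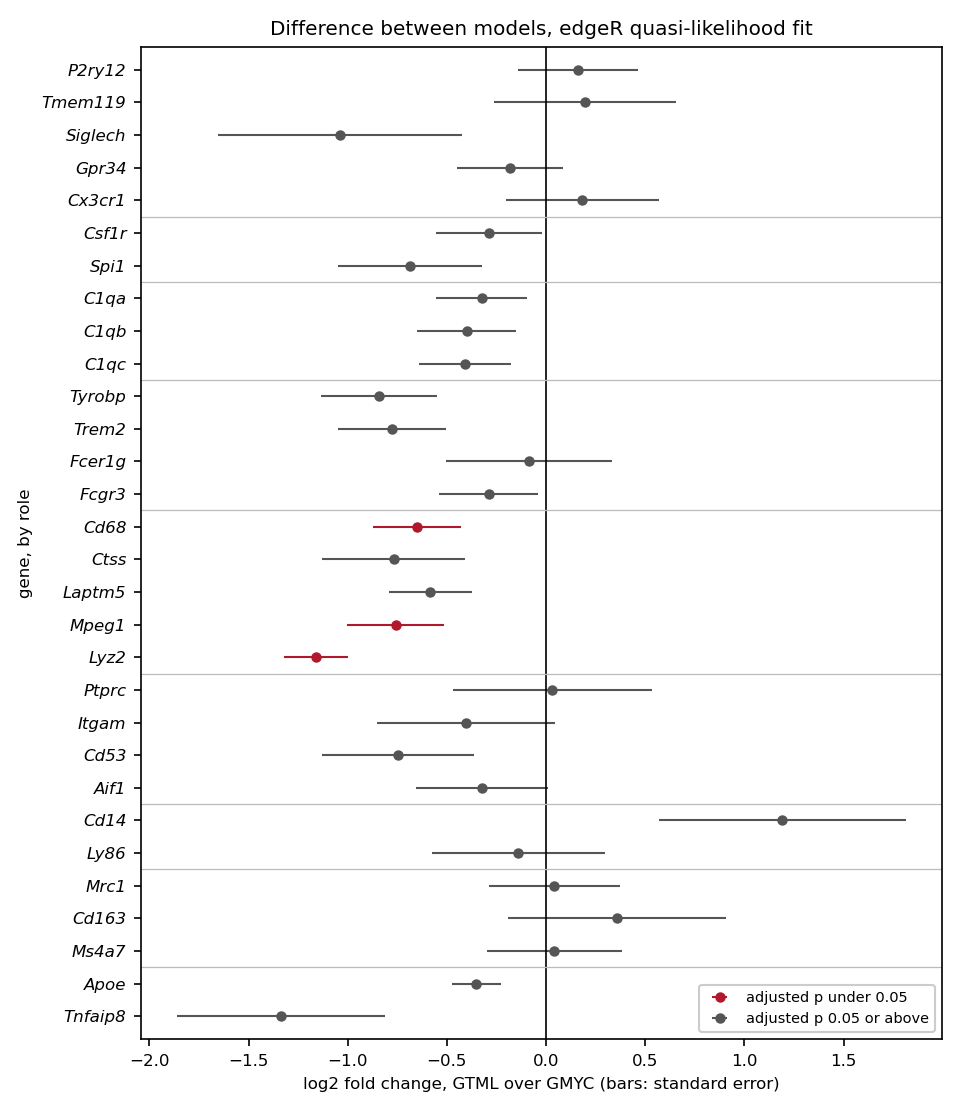
Fitted log2 fold change, GTML over GMYC, of each gene with its standard error, ordered by role and with Lyz2, Mpeg1 and Cd68 (adjusted p under 0.05) in red. Points left of 0 are higher in GMYC; the 5 lysosome and phagosome genes all lie left, and the border macrophage genes lie at or right of 0.

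All 5 genes of the lysosome and phagosome had a negative log2 fold change, with a median of -0.76, and 3 were called. Lyz2, the lysozyme of macrophages and granulocytes that cuts bacterial cell walls, had 126 to 179 CPM in GMYC tumors with a median of 162 CPM, and 57.1 to 114 CPM in GTML tumors with a median of 61.4 CPM. Every GMYC tumor was above every GTML tumor, and GTML tumors 2 and 8 were the highest of their group at 114 and 93.5 CPM. Lyz2 was 2.24-fold higher in GMYC tumors (log2 fold change -1.16, SE 0.16, edgeR, Benjamini-Hochberg adjusted p = 0.0013). It was the only one of the 30 genes without overlap between the models, where 2.48% of all genes tested had every GMYC tumor above every GTML tumor and 2.14% the reverse. With each tumor left out in turn its log2 fold change stayed between -1.29 and -1.12 and the call held. Below the small nucleolar RNA split it was -1.34 (edgeR, adjusted p = 0.0076) and above it -0.85 (edgeR, adjusted p = 0.33).

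Lyz2 and the neighboring paralog Lyz1 are near-identical, and how reads that fit both were counted is not given in the sources used here, so the split between the 2 genes is uncertain. Lyz1 had 5.66 to 17.9 CPM in GMYC tumors and 2.29 to 6.11 CPM in GTML tumors, a log2 fold change of -1.89 (edgeR, adjusted p = 0.0027). The highest count of Lyz2 came to 0.945 per base of exon, and no protein-coding gene with 500 or more exon bases, of which there were 19903, exceeded 1.27. Only 1.49% of those genes went above 0.5 counts per base, and 4 of the 30 genes did: Lyz2, Apoe, Ctss and C1qa. How duplicate reads were treated is not given in the sources used here, and the effect of a ceiling on these 4 genes was not tested.

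Mpeg1, which encodes the pore-forming perforin-2 of macrophages, had 111 to 183 CPM in GMYC tumors (median 149 CPM) and 42.3 to 146 CPM in GTML tumors (median 74.7 CPM). Apart from GTML tumors 2 and 8, at 144 and 146 CPM, the GTML tumors lay below all GMYC tumors. Its log2 fold change was -0.76 (SE 0.24, edgeR, adjusted p = 0.038). Leaving out 1 tumor ended the call for 9 of 14 tumors and kept it without GMYC tumor 3 or 4 or without GTML tumor 2, 6 or 8, with adjusted p from edgeR between 0.010 and 0.077 over the 14 fits.

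Cd68, a heavily glycosylated protein of the lysosomal membrane that is widely used to stain macrophages, had 23.6 to 38.8 CPM in GMYC tumors (median 31.2 CPM) and 14.0 to 33.6 CPM in GTML tumors (median 16.5 CPM). Again GTML tumors 2 and 8 overlapped the GMYC range, at 29.4 and 33.6 CPM, and the other 6 did not. The log2 fold change was -0.65 (SE 0.22, edgeR, adjusted p = 0.047), and the call held in 3 of the 14 fits that each left out a tumor, those without GMYC tumor 4, GTML tumor 2 or GTML tumor 8. Above and below the small nucleolar RNA split neither gene passed in edgeR's test, with -0.38 and -0.97 for Mpeg1 (adjusted p of 0.63 and 0.096) and -0.32 and -0.94 for Cd68 (adjusted p of 0.67 and 0.086). Ctss, the cathepsin that trims the invariant chain in antigen presentation, had 40.8 to 103 CPM in GMYC tumors and 12.3 to 70.0 CPM in GTML tumors, a log2 fold change of -0.77 that did not pass (edgeR, adjusted p = 0.13). Laptm5, a lysosomal membrane protein of blood cells, had 27.0 to 36.5 CPM in GMYC tumors and 12.4 to 33.5 CPM in GTML tumors (log2 fold change -0.58, edgeR, adjusted p = 0.058).

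**Figure D3:**
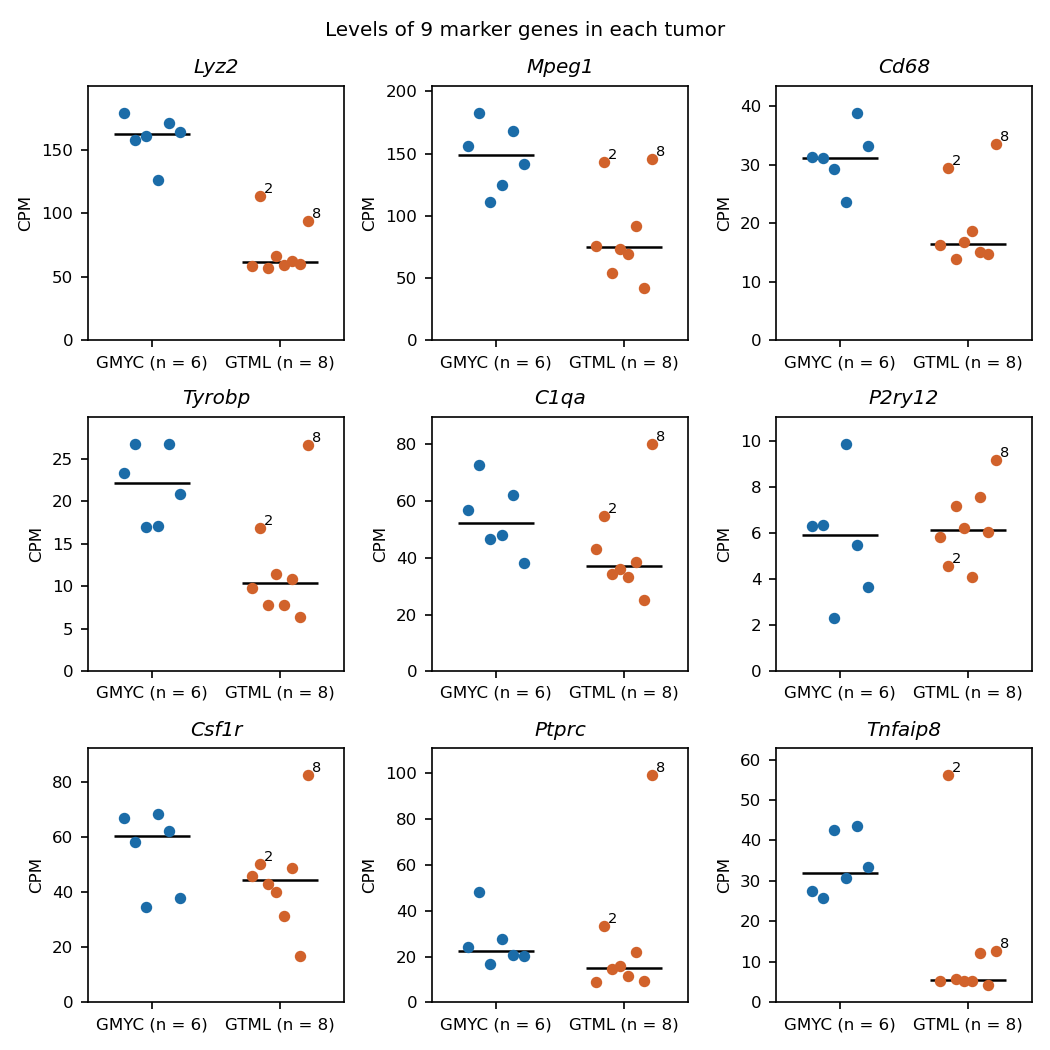
CPM of 9 of the genes in each tumor (points) with the median of each model (line); digits mark GTML tumors 2 and 8, and each axis starts at 0. The models separate for Lyz2, overlap through tumors 2 and 8 for Mpeg1 and Cd68, and mix for P2ry12, Csf1r and Ptprc.

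The adaptor Tyrobp, also called DAP12, carries an immunoreceptor tyrosine-based activation motif (ITAM) and passes on signals from receptors that lack one of their own. It had 17.0 to 26.7 CPM in GMYC tumors (median 22.2 CPM) and 6.41 to 26.6 CPM in GTML tumors (median 10.4 CPM). Of the GTML tumors only tumor 8 lay inside the upper part of the GMYC range, and tumor 2, at 16.9 CPM, was just under its lowest value. The log2 fold change of -0.84 (SE 0.29) missed the threshold in edgeR's test (adjusted p = 0.052), and it passed without GTML tumor 8 (-1.11, edgeR, adjusted p = 0.011) and without GTML tumor 2 (-0.92, edgeR, adjusted p = 0.032). Trem2, a lipid-sensing receptor that signals through Tyrobp, had 13.5 to 32.7 CPM in GMYC tumors and 6.60 to 17.4 CPM in GTML tumors (log2 fold change -0.78, edgeR, adjusted p = 0.054), highest in GMYC tumors 5 and 6.

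Fcer1g, the common gamma chain of Fc receptors and another ITAM adaptor, was set apart by 1 library. Its GMYC tumors had 7.50 to 14.4 CPM and its GTML tumors 4.92 to 35.9 CPM, where tumor 8 held the highest value and the other 7 had at most 9.27 CPM. Over all tumors the log2 fold change was -0.09 (SE 0.42, edgeR, adjusted p = 0.90) and -0.69 without GTML tumor 8, where it still did not pass. Fcgr3, the low-affinity IgG receptor that pairs with this chain, had 19.4 to 35.6 CPM in GMYC tumors and 11.7 to 33.9 CPM in GTML tumors (log2 fold change -0.29, edgeR, adjusted p = 0.41).

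The growth factor receptor Csf1r had 34.7 to 68.5 CPM in GMYC tumors (median 60.3 CPM) and 16.8 to 82.4 CPM in GTML tumors (median 44.4 CPM). The GMYC range lay within the GTML range, and GTML tumor 8 was the highest of the 14 (log2 fold change -0.29, SE 0.27, edgeR, adjusted p = 0.45). Spi1 was low, at 4.90 to 11.3 CPM in GMYC tumors (median 6.54 CPM) and 2.19 to 11.6 CPM in GTML tumors (median 3.63 CPM). Apart from tumor 8, no GTML tumor reached the lowest GMYC value of Spi1, and tumor 2 came next at 4.88 CPM. Its log2 fold change was -0.69 over all tumors (SE 0.36, edgeR, adjusted p = 0.18) and -1.07 without GTML tumor 8 (edgeR, adjusted p = 0.021).

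PU.1, the product of Spi1, binds purine-rich DNA with a GGAA core, so the start regions of the genes were searched for the letters GAGGAAGT and the shorter AGGAAG, which lies within it, on both strands. RefSeq windows of the GRCm38.p6 assembly, from 250 bases before to 50 after the transcription start, matched 22 of the 30 genes, with 27 windows in all. GAGGAAGT was in 3 of these windows (11.1%), those of C1qc, Ctss and Cd53, and in 3.2% of all 32851 windows. AGGAAG was in 17 of the 27 (63%) and in 35.4% of all windows. Lyz2 held AGGAAG at position -137 and, on the opposite strand and so printed as CTTCCT, at -99. The windows of Mpeg1 and Cd68 held neither string. The 3 windows with the longer string and that of Lyz2, the gene with the clearest difference, are given with the matched letters in capitals. In all 3 the longer string is on the strand opposite the printed one, so it appears as ACTTCCTC. The left end of these letters is at position -195 in C1qc, -2 in Ctss and 7 in Cd53. A match describes letters and not a bound site.
Lyz2 (chr10:117282223-117282522, minus strand): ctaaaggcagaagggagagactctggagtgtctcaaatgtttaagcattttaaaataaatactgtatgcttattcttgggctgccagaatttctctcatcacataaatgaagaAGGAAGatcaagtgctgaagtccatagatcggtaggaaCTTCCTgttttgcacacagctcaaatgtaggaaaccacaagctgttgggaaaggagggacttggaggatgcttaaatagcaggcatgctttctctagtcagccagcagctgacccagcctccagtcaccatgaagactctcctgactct
C1qc (chr4:136892865-136893164, minus strand): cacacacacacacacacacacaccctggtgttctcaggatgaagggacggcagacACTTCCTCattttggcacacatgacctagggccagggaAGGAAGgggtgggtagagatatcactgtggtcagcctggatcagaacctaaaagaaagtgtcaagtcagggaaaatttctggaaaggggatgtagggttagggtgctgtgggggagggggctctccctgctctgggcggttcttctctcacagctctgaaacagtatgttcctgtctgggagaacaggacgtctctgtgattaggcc
Ctss (chr3:95526536-95526835, plus strand): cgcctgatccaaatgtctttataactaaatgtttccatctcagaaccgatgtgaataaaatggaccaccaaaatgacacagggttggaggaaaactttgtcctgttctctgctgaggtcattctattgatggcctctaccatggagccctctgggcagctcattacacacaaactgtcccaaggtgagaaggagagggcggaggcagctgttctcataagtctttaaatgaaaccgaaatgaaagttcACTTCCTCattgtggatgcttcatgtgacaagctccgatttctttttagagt
Cd53 (chr3:106790100-106790399, minus strand): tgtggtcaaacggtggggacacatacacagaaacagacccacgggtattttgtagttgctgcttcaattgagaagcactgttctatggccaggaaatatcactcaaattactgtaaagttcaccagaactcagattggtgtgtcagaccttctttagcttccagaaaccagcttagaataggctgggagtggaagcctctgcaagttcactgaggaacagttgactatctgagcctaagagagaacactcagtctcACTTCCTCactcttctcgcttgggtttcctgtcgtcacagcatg

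The C1q chains C1qa, C1qb and C1qc assemble into the recognition part of the classical complement pathway, which in the brain is made mainly by microglia. C1qa had 38.0 to 72.6 CPM in GMYC tumors (median 52.3 CPM) and 25.3 to 79.9 CPM in GTML tumors (median 37.2 CPM). C1qb had 47.2 to 65.9 CPM in GMYC tumors (median 52.9 CPM) and 16.4 to 69.4 CPM in GTML tumors (median 39.6 CPM). C1qc had 42.4 to 58.4 CPM in GMYC tumors (median 49.0 CPM) and 18.1 to 65.4 CPM in GTML tumors (median 36.1 CPM). GTML tumor 8 was the highest and GTML tumor 7 the lowest of all 14 tumors for each of the 3 chains. The log2 fold changes lay between -0.41 and -0.32 and none passed in edgeR's test, with adjusted p between 0.20 and 0.31.

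None of the 5 microglia surface receptors passed the test. Their log2 fold changes had a median of 0.16, with 2 below 0. P2ry12, the ADP receptor that guides microglial processes to damage, had 2.29 to 9.84 CPM in GMYC tumors (median 5.89 CPM) and 4.09 to 9.17 CPM in GTML tumors (median 6.12 CPM). Tmem119, a membrane protein used to mark microglia, had 4.28 to 13.1 CPM in GMYC tumors (median 9.33 CPM) and 2.07 to 21.4 CPM in GTML tumors (median 9.43 CPM). Both genes overlapped fully between the models, with log2 fold changes of 0.16 (SE 0.30) and 0.20 (SE 0.46) and adjusted p of 0.72 and 0.78 from edgeR.

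Cx3cr1, the receptor for the neuronal chemokine fractalkine, had 6.79 to 32.5 CPM in GMYC tumors and 9.43 to 48.1 CPM in GTML tumors. Gpr34, a receptor for lysophosphatidylserine, had 4.52 to 9.01 CPM in GMYC tumors and 3.47 to 8.92 CPM in GTML tumors. Siglech, a sialic acid-binding lectin, was the faintest of the group, with 0 to 21 counts in a library. Its median was 1.78 CPM in GMYC tumors and 0.658 CPM in GTML tumors, and the log2 fold change of -1.04 had an SE of 0.61 (edgeR, adjusted p = 0.22).

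Whether the lysosome and phagosome genes and the surface receptors differ from each other as groups was not tested, since the genes were chosen with results of these counts known. Sall1, a transcription factor listed here with genes of resting microglia, had 95.5 to 387 CPM across the tumors, and was not called. Its highest value was in GTML tumor 7, where 0 of the marker genes lay above their median over all tumors. Its lowest value was in GTML tumor 2, where 20 of them did. Which cells the Sall1 reads came from was not tested, so the level of Sall1 is not read as a level of microglia. Of 9 lysosomal enzymes and membrane proteins, 3 were called higher in GMYC tumors, the cathepsins Ctsb, Ctsd and Ctsz, and 0 higher in GTML tumors by edgeR (0 also at an unadjusted p under 0.05). Ctsd had 232 to 313 CPM in GMYC tumors and 138 to 231 CPM in GTML tumors without overlap (log2 fold change -0.58, edgeR, adjusted p = 0.0056). Ctsb had 255 to 323 CPM and 159 to 259 CPM (log2 fold change -0.49, edgeR, adjusted p = 0.0094).

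Of 14 genes of activated and phagocytic myeloid cells, 13 passed the filter and 2 were called, both higher in GMYC tumors. Lpl, a lipoprotein lipase that cells outside the myeloid lineage also make, had 144 to 199 CPM in GMYC tumors and 59.8 to 95.8 CPM in GTML tumors (log2 fold change -1.08, edgeR, adjusted p = 3.2e-04). Clec7a, the beta-glucan receptor dectin-1, had 21.0 to 44.6 CPM and 4.76 to 26.1 CPM, where GTML tumor 8 was the highest of its group (log2 fold change -1.40, edgeR, adjusted p = 0.015). Among 9 complement components and receptors only C3 was called, with 2.60 to 43.6 CPM in GMYC tumors and 1.28 to 11.8 CPM in GTML tumors (log2 fold change -1.80, edgeR, adjusted p = 0.035). No gene was called in either direction by edgeR in 3 further lists. These held 8 tested ligand genes (of Csf1r and of chemokine receptors, with Tgfb1, Cd200 and Cd47), 12 genes of ITAM and Fc receptor signaling and 9 myeloid transcription factors. At an unadjusted p under 0.05 those 3 lists gave 0, 0 and 1 higher in GMYC tumors and 1, 0 and 2 higher in GTML tumors.

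Of the leukocyte surface and cytoskeleton genes, Ptprc, which encodes the phosphatase CD45 of all nucleated blood cells, had 16.8 to 48.4 CPM in GMYC tumors (median 22.4 CPM) and 8.99 to 99.2 CPM in GTML tumors (median 15.2 CPM). GTML tumor 8 held 99.2 CPM and the next GTML tumor, tumor 2, 33.2 CPM. Over all tumors the fitted log2 value was 0.03 (SE 0.50, edgeR, adjusted p = 0.97) and -0.67 without GTML tumor 8, so its direction rested on that library, and neither value passed. Cd53, a tetraspanin of leukocytes, had 14.0 to 26.4 CPM in GMYC tumors and 4.15 to 31.2 CPM in GTML tumors (log2 fold change -0.75, edgeR, adjusted p = 0.16). Without GTML tumor 8 it was -1.11 (edgeR, adjusted p = 0.027).

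Aif1, the actin-bundling protein IBA1 used to stain microglia, had 9.33 to 17.1 CPM in GMYC tumors and 5.85 to 23.2 CPM in GTML tumors. Itgam, the integrin chain CD11b, had 4.08 to 22.9 CPM in GMYC tumors and 2.01 to 15.4 CPM in GTML tumors. The fitted log2 fold changes of both were negative (-0.32 and -0.41) and did not pass in edgeR's test (adjusted p of 0.49 and 0.53). Itgam shares 3450 of its 5024 exon bases with the annotated gene Gm49368 on the same strand, so its count is uncertain. Exons of Csf1r, Cx3cr1, P2ry12 and Tnfaip8 overlap a gene on the opposite strand, over 873, 78, 9 and 1312 bases, and whether counting used the strand is not given in the sources used here.

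Macrophages of the meninges and vessels are marked by the mannose receptor Mrc1, the hemoglobin scavenger receptor Cd163 and the tetraspan protein Ms4a7. Mrc1 had 15.9 to 28.2 CPM in GMYC tumors (median 20.5 CPM) and 5.47 to 41.7 CPM in GTML tumors (median 20.8 CPM). The models overlapped fully, with GTML tumor 7 lowest and GTML tumor 8 highest (log2 fold change 0.04, SE 0.33, edgeR, adjusted p = 0.94). Ms4a7 had 8.22 to 23.9 CPM in GMYC tumors and 6.52 to 37.0 CPM in GTML tumors, with the same fitted value to 2 decimals. Cd163 stood at 1 to 20 counts in a library. Among 8 further border macrophage genes, 5 passed the filter and 0 were called in either direction by edgeR (1 higher in GTML tumors at an unadjusted p under 0.05).

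Cd14 and Ly86, accessory proteins in the sensing of endotoxin, were also faint. Cd14 had 0.985 to 4.18 CPM in GMYC tumors (median 2.83 CPM) and 1.46 to 22.5 CPM in GTML tumors (median 2.76 CPM). The medians were nearly equal, and the fitted log2 fold change of 1.19 (SE 0.62, edgeR, adjusted p = 0.17) depended on GTML tumor 6, at 22.5 CPM. It was 0.50 without that tumor, and 1.02 without GTML tumor 8, the next highest at 10.7 CPM. Ly86 had 2.97 to 6.12 CPM in GMYC tumors and 1.13 to 10.5 CPM in GTML tumors, with 6 to 69 counts in a library.

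Apoe, the lipid carrier apolipoprotein E, had 162 to 188 CPM in GMYC tumors (median 168 CPM) and 99.0 to 170 CPM in GTML tumors (median 128 CPM). GTML tumors 1 and 2, at 170 and 162 CPM, lay at the level of the GMYC tumors. The log2 fold change was small and precisely estimated (-0.35, SE 0.12) and missed the threshold in edgeR's test (adjusted p = 0.053). Tnfaip8, a cytosolic lipid-binding protein linked to cell survival, had 25.8 to 43.5 CPM in GMYC tumors (median 32.1 CPM) and 4.34 to 56.1 CPM in GTML tumors (median 5.56 CPM). GTML tumor 2 alone held 56.1 CPM, above every other tumor, and the other 7 GTML tumors had at most 12.7 CPM. The log2 fold change was -1.33 over all tumors (SE 0.52, edgeR, adjusted p = 0.077) and -2.22 without GTML tumor 2 (edgeR, adjusted p = 6.2e-04). Above the small nucleolar RNA split, where tumor 2 is 1 of 2 GTML libraries, it was -0.03 (edgeR, adjusted p = 0.99), and below the split -2.34 (edgeR, adjusted p = 0.015).

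Compared between genes per kilobase of exon, with exon lengths of the GRCm38 annotation, the median level in GMYC tumors was highest for Lyz2 at 123 CPM per kb. Apoe followed at 78.5, C1qa at 50.3, C1qb at 48.6, Ctss at 43.1, Mpeg1 at 34.4 and Tyrobp at 33.2 CPM per kb. In GTML tumors Apoe led at 59.9 CPM per kb, followed by Lyz2 at 46.7, C1qb at 36.4 and C1qa at 35.7 CPM per kb. The receptors typical of resting microglia were far below these genes, with GMYC medians of 5.30 CPM per kb for Cx3cr1, 4.03 for Tmem119, 2.55 for Gpr34, 2.32 for P2ry12 and 0.525 for Siglech. Such low levels were not particular to these receptors. Other members had similar GMYC medians, such as Trem2 at 3.48, Mrc1 at 3.21, Spi1 at 2.43, Itgam at 2.01 and Ptprc at 1.22 CPM per kb. Cd163 was the lowest of the 30 in both models, at 0.181 and 0.188 CPM per kb. Neighbors such as C1qa and C1qb, or Mpeg1 and Tyrobp, are closer than the spread between tumors.

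**Figure D4:**
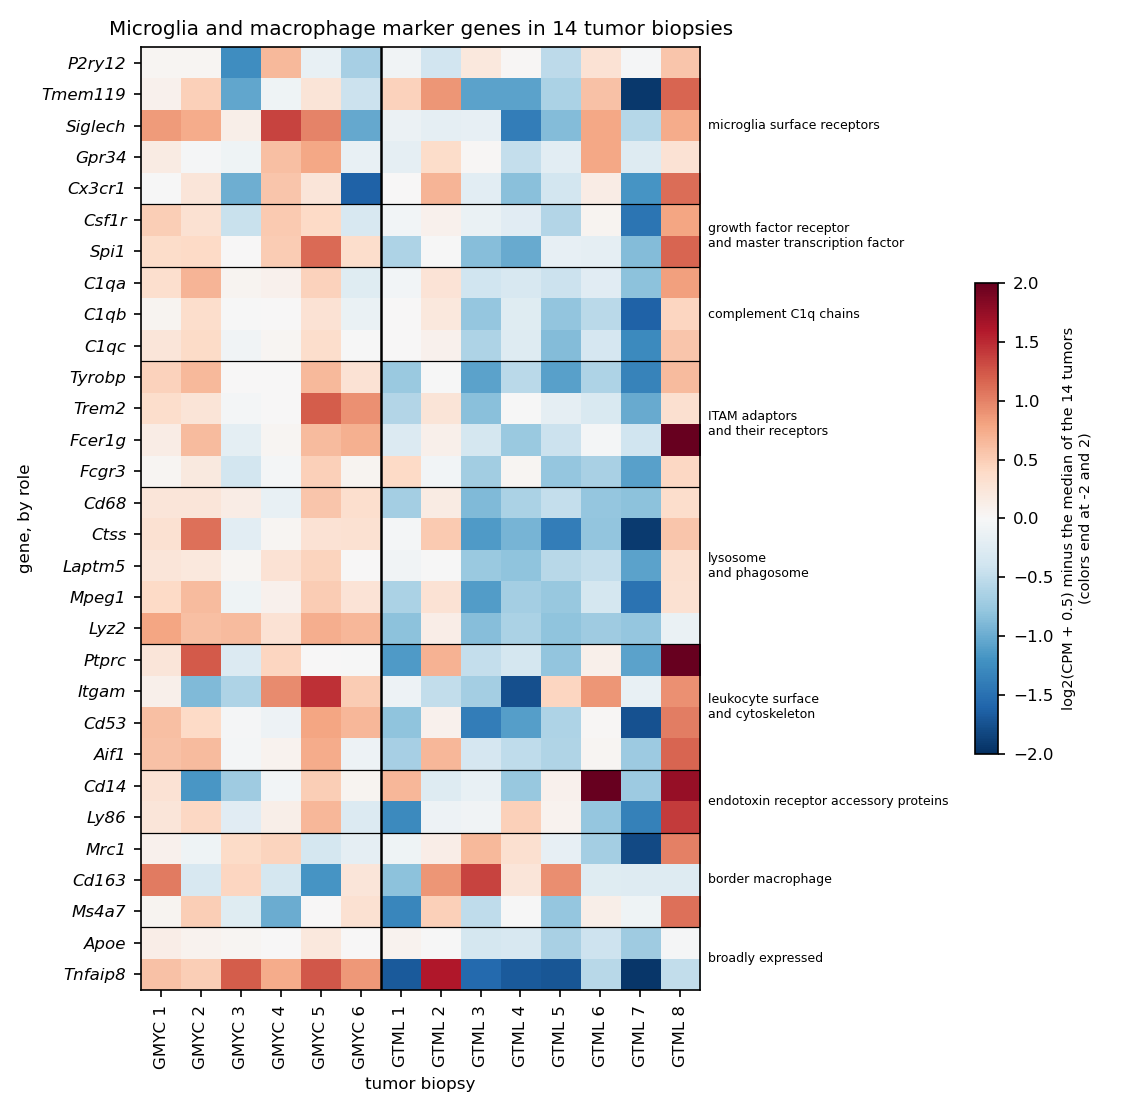
Level of each gene in each tumor as log2(CPM + 0.5) minus the median of the 14 tumors, red above and blue below, with genes grouped by role. GTML tumor 8 is red for most rows and GTML tumor 7 blue, and the GMYC tumors differ less from each other.

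Within single tumors many of the genes were high or low at once. Counting for each tumor the genes above their median over all 14 tumors gave 11 to 29 of 30 in GMYC tumors and 0 to 26 of 30 in GTML tumors. GTML tumor 7 had 0, GTML tumors 1, 3, 4 and 5 had 4 to 7, GTML tumor 6 had 12, GTML tumor 2 had 20 and GTML tumor 8 had 26. GTML tumor 8 was the highest of the 8 GTML tumors for 23 of the 30 genes, while over all 21024 genes tested it was the highest for 8.09%. Its median ratio to the other GTML tumors was 2.197 over the 30 genes and 0.992 over all genes. GTML tumor 7 was the lowest of its model for 18 of the 30 genes, against 7.66% of all genes. Among GMYC tumors, tumor 5 was the highest for 13 of the 30 genes (16.2% of all genes) and tumor 3 the lowest for 12 (14.6% of all genes).

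Several genes outside the 30, picked after their values were seen, stood as high in GTML tumor 8. Fcgr4, an activating Fc receptor, had 62.4 CPM there and at most 9.89 CPM in the other GTML tumors. Itgax, the integrin chain CD11c, had 79.5 CPM against at most 31.6 CPM. Il1b, the inflammatory cytokine interleukin-1 beta, had 11.5 CPM against at most 3.88 CPM. Cd8a had 17.4 CPM against at most 10.3 CPM, and Cd79b, of the B cell receptor, 7.03 CPM against at most 1.16 CPM.

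Marker lists of other cells showed few calls. Of 11 T and NK cell markers 3 passed the filter and 0 were called in either direction by edgeR (0 also at an unadjusted p under 0.05), and Cd3e stood at 0 to 4 counts in a library. Their summed level was 19.5 to 50.2 CPM in GMYC tumors and 33.8 to 80.1 CPM in GTML tumors, most of it from Cd4 in every tumor. Of 9 neutrophil genes 2 passed, and Camp was called higher in GTML tumors, at 0.163 to 1.59 CPM against at most 0.161 CPM in GMYC tumors. Its counts were 0 or 1 in GMYC libraries and 1 to 9 in GTML libraries. Ly6g was at 0 in every library, and S100a8 and S100a9 had at most 7 and 10 counts. Of 6 B cell markers 3 passed and Cd79a was called higher in GTML tumors (0.431 to 2.72 CPM against 0.161 to 0.990 CPM), with 1 to 14 counts in a library. Camp and Cd79a passed the filter only through GTML tumors, which favored a call in that direction, so no difference between the models is read from them. Of 8 monocyte genes 6 passed and 0 were called in either direction by edgeR (1 higher in GTML tumors at an unadjusted p under 0.05), and their sum of 63.6 to 483 CPM in GMYC tumors and 78.0 to 689 CPM in GTML tumors was mostly Fn1 and Vcan.

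The globins among the red blood cell genes differed between the models. Of 5 red blood cell genes 4 were called higher in GMYC tumors, all globins, with log2 fold changes from -2.55 to -1.78, and Hbb-bs had 12.2 to 45.4 CPM in GMYC tumors and 3.02 to 14.5 CPM in GTML tumors. The fifth gene, Alas2, went the other way and was not called (log2 fold change 0.51). It had 18.7 to 63.2 CPM in GMYC tumors and 28.5 to 122 CPM in GTML tumors. The summed level of the list, with Alas2, was 53.4 to 176 CPM in GMYC tumors and 41.6 to 134 CPM in GTML tumors. All 7 astrocyte markers had a negative log2 fold change, with a median of -0.72 and 0 called in either direction by edgeR (2 higher in GMYC tumors at an unadjusted p under 0.05). They summed to 807 to 1426 CPM in GMYC tumors and 545 to 979 CPM in GTML tumors, and the list includes Slc1a2, the gene whose promoter drives the transactivator. Of 10 endothelial and pericyte markers only Kdr was called, higher in GTML tumors, and of 7 oligodendrocyte markers only Mog, also higher in GTML tumors. Cbln3 was the only cerebellar neuron marker called (6 of 7 tested), higher in GMYC tumors. It had 62.6 and 11.3 CPM in GMYC tumors 1 and 3 and at most 0.966 CPM in the other GMYC tumors. GTML tumors had 0.306 to 2.12 CPM, so the call rested on GMYC tumors 1 and 3. None of the choroid plexus markers was called by edgeR (1 higher in GTML tumors at an unadjusted p under 0.05). The part of these lists in the differences of the 30 genes was not tested.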

How the data were processed

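RNA from fresh-frozen biopsies of 6 GMYC and 8 GTML tumors was sequenced on Ion Torrent libraries. The paper names GTML tumors from earlier work beside new GTML tumors, and the sample titles do not say which are which. The authors aligned reads to mouse mm9 with STAR and then Bowtie and counted them over GENCODE genes with featureCounts (STAR 2.4.0, Bowtie2 2.2 and Subread 1.5.2 in the submitters' processing notes), and the deposited values are raw counts. A further 18 per-sample columns match no label and were not used. Gene symbols and exon lengths came from the GRCm38 annotation (GENCODE vM21), matched by Ensembl identifier.

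Counts were normalized by TMM and compared with edgeR 4.0.16 (quasi-likelihood test, R 4.3.3). CPM uses TMM library sizes. The mean log2 level per tumor and the check of the replicate numbers used a prior count of 2. Alternatives were DESeq2 1.42.0, limma-voom (limma 3.58.1), other size factors and filters, the replicate number as a block, each tumor left out, the small nucleolar RNA split, protein-coding genes only and thinned counts. The code was tested on simulated data. Figures used matplotlib 3.10.9.

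The 30 genes, their role groups, the other lists and the split were chosen with earlier results of these data known. Values by tumor range are given for genes past the call, the 6 largest changes and the defining markers. Other members are given by range, and genes of other lists by count, with at most 2 called genes named per list and direction. Sall1, Fcgr4, Itgax, Il1b, Cd8a, Cd79b, Lyz1, and the genes at 0 or few counts fall outside that rule and were chosen after their values were seen. Some results of the other lists are not reported here. The labels do not say that the tumors came from separate animals, so p-values measure the spread between biopsies. Shares and precision from counts cover counting error only.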

Additional observations from a re-analysis of the deposited data

Results flagged for a closer look

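In 10 of 62 groups of values (each of the 30 genes, and their mean log2 level, in each model), 1 tumor stood apart, with a gap to the nearest other tumor, divided by the range of its group, above Dixon's 95% limit. For independent, normally distributed values chance alone gives such a gap in about 1 of 20 groups, here 3.1. The gaps of single genes were taken on CPM, which need not be normal, and every flag lay at the highest tumor. The 10 is therefore not read as an excess over 3.1. GTML tumor 8 was the highest in 5 of them. Its gap was 0.86 of the range for Fcer1g (35.9 CPM, next 9.27 CPM), 0.732 for Ptprc (99.2 CPM, next 33.2 CPM) and 0.715 for Spi1 (11.6 CPM, next 4.88 CPM). For Cd53 (31.2 CPM, next 16.1 CPM) and for Ly86 (10.5 CPM, next 5.29 CPM) it was 0.558.

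GTML tumor 2 stood apart for Tnfaip8 at 0.839 (56.1 CPM, next 12.7 CPM), and GTML tumor 6 for Cd14 at 0.561 (22.5 CPM, next 10.7 CPM). Among GMYC tumors, tumor 2 stood apart for Ctss at 0.708 (103 CPM, next 59.0 CPM) and for Ptprc at 0.658 (48.4 CPM, next 27.6 CPM). GMYC tumor 5 stood apart for Spi1 at 0.647 (11.3 CPM, next 7.14 CPM). The genes of 1 tumor share their library, so these are not separate observations.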

How the results depend on the processing

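The median log2 fold change of the 30 genes stayed between -0.58 and -0.22 over all alternatives, and 0 genes were called higher in GTML tumors in each of them. The call of Lyz2 held in every alternative but the 6 libraries with a small nucleolar RNA share above 0.3%. The count called higher in GMYC tumors was 3 in the main fit, 8 with DESeq2 and 7 with limma-voom. It was 5 with protein-coding genes only, where 8.81% of 15441 genes tested were called higher in GMYC tumors. It was 1 when 6 tumors had to exceed 5 CPM, 0 above the small nucleolar RNA split, and 1 to 9 with each tumor left out. Past the limits of the study lay 2 with limma-voom, 0 above that split, and 1 to 2 with each tumor left out, against 1. The share of all genes past those limits was taken for the main fit only (3.22%). With the filter at 5 CPM in 6 tumors, 14507 genes were tested and 10.4% of them were called higher in GMYC tumors. The cause of these shifts was not tested.

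The replicate numbers are shared by 6 pairs of tumors, whose deviations correlated between -0.21 and 0.24, only 1 pair over 0.1, and only number 1 correlated best with its own number, so the numbers do not pair the samples. With the number as a block, which drops GTML tumors 7 and 8, 2 genes were called higher in GMYC tumors, 0 lay past the limits of the study, 0.437% of all genes were called higher in GMYC tumors, and the log2 fold change was -0.014 for Tmem119, -0.61 for Ptprc, -0.021 for Mrc1 and -0.28 for Ms4a7.

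Genes that changed direction were not called in any of these fits. With limma-voom the log2 fold change was -0.078 for Tmem119, -0.34 for Ptprc, -0.11 for Mrc1 and -0.033 for Ms4a7. With a term for the split, Ms4a7 gave -0.066. Above the split the values were -0.24 for P2ry12, 0.015 for C1qb, 0.23 for Fcgr3, -0.46 for Ptprc, -0.19 for Mrc1, -0.031 for Cd163 and -0.071 for Ms4a7, and below it -0.064 for Tmem119 and -0.063 for Ms4a7. With thinned counts Fcer1g gave 0.022. With each tumor left out the values ran from -0.053 to 0.36 for Cx3cr1, -0.69 to 0.021 for Fcer1g, -0.55 to 1e-04 for Ly86, -0.15 to 0.19 for Mrc1, -0.21 to 0.17 for Ms4a7, -8e-04 to 0.39 for P2ry12, -0.67 to 0.30 for Ptprc and -0.045 to 0.35 for Tmem119. Counts were few for 4 genes: Siglech, Cd163, Cd14 and Ly86 each had fewer than 10 counts in at least 1 library.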
